A study of Mus musculus with 12 samples.

Results

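The comparison described here is the effect of losing Shank2 in mice that received only vehicle, KO-Veh against WT-Veh, which the study names Veh-K/W. It rests on 6 of the 12 mice of the series, 3 in each group, and was chosen by genotype and treatment alone. KO-Veh mice are homozygous for a deletion of exons 6 and 7 of Shank2 and WT-Veh mice are their wild-type counterparts. All were males on the C57BL/6N background that were given the saccharin vehicle, without memantine, orally on postnatal days 7 to 21, 2 doses daily, and were sampled at postnatal day 25. The deletion is present in every cell from conception, and the line is distributed under a name that records a 129S4 contribution to its C57BL/6N background. Of the 19312 genes in the deposited table, 17671 had a mean of at least 10 normalized counts over these 6 mice and were tested. The filter fell between Gm8355, with a mean of 10.03, and Gm32834, with a mean of 9.998. The other 6 mice, WT-Mem and KO-Mem, had the same genotypes and received memantine, an NMDA receptor blocker, at 20 mg/kg on the same days.

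Shank2 belongs to the Shank family of scaffold proteins, which sit in the postsynaptic density of excitatory synapses. These proteins bind SAPAP and Homer proteins and so tie NMDA-type and metabotropic glutamate receptors to the actin cytoskeleton and to intracellular calcium stores. Mutations of SHANK2 are known from people with autism spectrum disorders, and Shank2-mutant mice are used as a model of social deficits. RNA was measured in bulk tissue, so a gene that differs may do so because fewer cells of a type were present or because each cell held less RNA, and these cannot be told apart.

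A pair of mice stood apart from the others, and values without them are given where they change a result. On the 500 most variable genes, WT-Veh mouse 3 lay at -36.0 on the first principal component (31.4% of the variance), whereas the other 5 mice lay between -4.03 and 16.8. The 13 mitochondrially encoded genes held 4.15% of the summed values in that mouse and 2.73% to 3.27% in the others. KO-Veh mouse 3 carried cerebellar transcripts. Cbln3, a gene of cerebellar granule cells, was 19.8, 15.6 and 745 normalized counts in KO-Veh and 11.3, 11.6 and 65 in WT-Veh. Gabra6, which marks the same cells, was at 254 in that KO-Veh mouse and at 0 to 12.9 in the other 5, and WT-Veh mouse 3 held the next highest value of both. The Purkinje cell gene Pcp2 was at 8.58, 6.97 and 379.7 in KO-Veh and 7.69, 11.8 and 21.5 in WT-Veh, and the granule cell factor gene Barhl1 at 28, 30.5 and 56.7 in KO-Veh and 22.5, 14.7 and 48.8 in WT-Veh. Of 8 cerebellar and hindbrain markers 4 passed the filter, and their sum was 53.1 to 1435 in KO-Veh and 40.3 to 148 in WT-Veh. The labels call the tissue whole brain, whereas the methods call it forebrain. The part of these transcripts in the results was not tested, and values without the mouse are given instead. Slc17a7, the vesicular glutamate transporter of cortical neurons, ranged from 34248 to 43504 over the 6 mice. The median of the values near 1 normalized count was 0.982 to 1.13 in the 6 mice. Only values in a narrow range about 1 entered it, so it could not lie far from 1. The depths of the 6 mice are therefore not known from it.

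Shank2 itself was the gene with the smallest p. Its normalized counts were 3053, 3006 and 2723 among KO-Veh and 8248, 7427 and 8325 among WT-Veh animals, with means of 2927 ± 178 and 8000.1 ± 498 (SD, n = 3 each). Every KO-Veh value lay under every WT-Veh value, and the loss was -1.45 on the log2 scale (SE 0.071, limma adjusted p = 1.77e-05). The gene-level value also counts reads from exons outside the deletion. The gene lies on chromosome 7 from 144001928 to 144424494 on the plus strand (GRCm38), and the unstranded library kit cannot separate its reads from those of Gm14372 and Gm44999, which overlap it.

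Beyond Shank2, 4 genes passed the adjusted p threshold of 0.05, so that 0.0283% of the genes tested were called. Itpr3, the type 3 receptor for inositol trisphosphate that releases calcium from the endoplasmic reticulum, rose from 232, 268 and 245 in WT-Veh to 513, 404 and 504 in KO-Veh (log2 fold change 0.92, SE 0.12, unadjusted p = 1.39e-05, limma adjusted p = 0.0493). The groups did not overlap, and KO-Veh mouse 2 was the lowest of its group. Itpr3 no longer passed when any mouse other than KO-Veh mouse 2 was left out, with limma adjusted p values up to 0.31 without KO-Veh mouse 3. Nor did it pass with a pseudocount of 0.5 or 5, a filter at a mean of 50, no filter or upper-quartile scaling. It was also lost without a trend, with a replicate block and in the fit on all 12 mice. Gm26793, an antisense RNA that overlaps Fgf15 in the neighbourhood of Shank2, rose from 3.09, 2.11 and 3.89 to 47.6, 45.6 and 43.2 (log2 fold change 3.55, SE 0.37, limma adjusted p = 0.00932). Its 3 KO-Veh mice lay close together, far above the WT-Veh mice. It no longer passed without KO-Veh mouse 1 (limma adjusted p = 0.101) or KO-Veh mouse 3 (limma adjusted p = 0.108), nor with a replicate block. A filter at a mean of 50 removed it before testing.

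The other two called genes are antisense RNAs that were listed at or near 0 in one of the groups. Gm14820, which overlaps the histone methyltransferase gene Suv39h1 on chromosome X, was at 46.9, 17.9 and 33.3 in KO-Veh and at 0, 0 and 0.84 in WT-Veh (limma adjusted p = 0.041). Gm43118, which overlaps the phosphatidylinositol transfer protein gene Pitpnb on chromosome 5, was listed at 0 in all 3 KO-Veh mice and at 64, 154 and 242 in WT-Veh (limma adjusted p = 0.000428). Gm14820 no longer passed without KO-Veh mouse 1, KO-Veh mouse 3, WT-Veh mouse 1 or WT-Veh mouse 2, nor with a pseudocount of 0.5 or 5. It was also lost without a trend, with a replicate block and in the fit on all 12 mice, and a filter at a mean of 50 removed it. Gm43118 passed whichever mouse was left out but not in the fit on all 12 mice. No fold change is given for either, as it would depend on the pseudocount. In mice outside the comparison Gm43118 did not separate the genotypes, with 52.3, 61.2 and 0 in KO-Mem and 53.2, 0 and 233 in WT-Mem. The unstranded library kit cannot separate reads of Gm26793, Gm14820 or Gm43118 from those of the genes they overlap, so their antisense origin rests on the annotation. The values assigned to the overlapped genes Suv39h1 and Pitpnb differed far less. Suv39h1 was at 979.6, 895 and 901 in KO-Veh and 829, 737 and 828 in WT-Veh (log2 fold change 0.21, unadjusted p = 0.0256), and Pitpnb was at 2296, 2151 and 2261 in KO-Veh and 2043, 1983 and 1829.6 in WT-Veh (log2 fold change 0.20, unadjusted p = 0.0152).

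**Figure D1:**
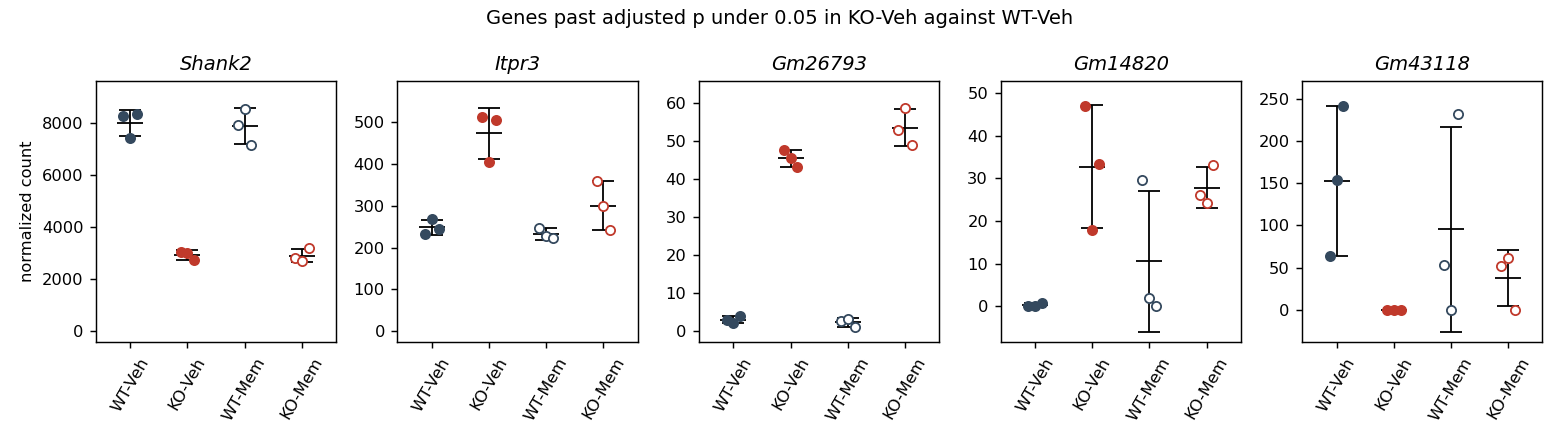
Normalized counts (linear axis from below 0, where SD bars reach) of the 5 genes with an adjusted p under 0.05 in KO-Veh against WT-Veh, 1 point per mouse, with the mean and SD of each group of 3 mice in black; filled points are vehicle mice and open points memantine mice. Shank2 and Gm26793 separate the genotypes under both treatments, whereas Gm43118 ranges from 0 to 242 within groups.

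Across all genes tested, 1190 (6.73%) were higher and 1358 (7.68%) lower in KO-Veh at an unadjusted p under 0.05, and 3608 (20.4%) had groups that did not overlap. Genes with an unadjusted p under 0.05 are called nominally higher or lower here, since all but 5 of them did not pass adjustment. The median log2 fold change was 0.0017 and the median size of a change was 0.13. Of the genes without overlap, those higher made up 9.73% of all genes and those lower 10.7%, and 49.6% of all genes had a negative log2 fold change. Without WT-Veh mouse 3, 5.93% were nominally higher and 6.39% lower, and 0.034% were called. Without KO-Veh mouse 3, 3.72% were nominally higher and 4.86% lower, 8.58% in all, and 0.0113% were called. The number of adjusted calls was most sensitive to KO-Veh mouse 2, without which 41 genes were called (0.232%), 14 higher and 27 lower, and 6.99% were nominally higher and 7.94% lower. These included Mapk11, Cryab, Arap3, Nefm, C4b and Igfbp2, which are described below with all 6 mice and did not pass there.

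Among protein-coding genes with a mean of at least 100 and no overlap between groups, the 12 with the smallest p in each direction are described next. Such a choice fixes their separation, so it is a description of the genes with the clearest values. Their sizes ran from 0.40 to 1.45 on the log2 scale, and apart from Shank2 and Itpr3 their limma adjusted p ran from 0.0597 to 0.135. Genes higher in KO-Veh included a serotonin receptor, an astrocyte enzyme and regulators of chromatin and RNA. Htr2a, the serotonin 2A receptor of cortical pyramidal neurons, was at 1023, 1055 and 1070.3 in KO-Veh and 849, 746 and 735 in WT-Veh (log2 fold change 0.44, SE 0.081, unadjusted p = 0.000266). Etnppl, an enzyme of astrocytes that breaks down phosphoethanolamine, was at 1281, 1172 and 1475 in KO-Veh and 822, 597 and 901 in WT-Veh (log2 fold change 0.77, SE 0.14, unadjusted p = 0.000267). Pla2g4e, a cytosolic phospholipase that makes N-acyl phosphatidylethanolamines, was at 482, 426 and 643 in KO-Veh and 272, 226 and 338 in WT-Veh (log2 fold change 0.89, SE 0.17, unadjusted p = 0.000422). In each of these the lowest KO-Veh mouse lay above the highest WT-Veh mouse.

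Cirbp, the cold-inducible RNA-binding protein, was at 1715, 1889 and 2148 in KO-Veh and 1427, 1193 and 1427 in WT-Veh (log2 fold change 0.51, unadjusted p = 0.000441). Mtf2, an accessory subunit of the Polycomb repressive complex that methylates histone H3, was at 1312, 1185 and 1232 in KO-Veh and 949, 978 and 889 in WT-Veh (log2 fold change 0.40, unadjusted p = 0.000281). Taf9, a subunit of the general transcription factor TFIID, was at 384, 437 and 335 in KO-Veh and 268, 208 and 235 in WT-Veh (log2 fold change 0.70, unadjusted p = 0.00036). All of these are regulators of RNA or chromatin with modest differences. Usp13, a deubiquitinase, had a log2 fold change of 0.43, and Fbxw17, an F-box protein, had 0.59. The remaining genes of this group were Klhl40 (0.83), a Kelch protein known from skeletal muscle, Myh7b (0.71), a myosin heavy chain, and Eml2 (0.45), a microtubule-associated protein. Klhl40 is overlapped by Gm47108, whose reads cannot be separated from its own.

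Genes lower in KO-Veh included a p38 kinase, an endothelial GTPase regulator and chaperones. Mapk11, which encodes p38 beta, was at 1038, 1080.0 and 915 in KO-Veh and 1447, 1576 and 1583 in WT-Veh (log2 fold change -0.60, SE 0.082, unadjusted p = 2.03e-05, limma adjusted p = 0.0597). Abhd12b, a serine hydrolase, had the largest change of the 12 after Shank2, at 48.2, 74.7 and 46.7 in KO-Veh and 147, 143 and 153 in WT-Veh (log2 fold change -1.40, SE 0.20, unadjusted p = 3.25e-05). Arap3, a GTPase-activating protein of endothelial cells, was at 253, 294 and 231 in KO-Veh and 410.3, 519 and 565 in WT-Veh (log2 fold change -0.93, SE 0.14, unadjusted p = 4.39e-05). Mapk11 and Abhd12b each varied little among the WT-Veh mice, and KO-Veh mouse 2 was the highest of its group for both and for Arap3.

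Cryab, the small heat shock protein alpha B-crystallin, which oligodendrocytes and astrocytes express, was at 1428, 1649 and 1301 in KO-Veh and 2083, 2455 and 2644 in WT-Veh (log2 fold change -0.71, SE 0.11, unadjusted p = 4.52e-05). Serpinh1, the collagen chaperone of the endoplasmic reticulum, was at 770.1, 786 and 635 in KO-Veh and 1063, 1234 and 1071 in WT-Veh (log2 fold change -0.62, SE 0.10, unadjusted p = 9.51e-05). Calr, the calcium-binding chaperone calreticulin, was at 8359, 8402 and 7332 in KO-Veh and 10190.2, 11451 and 11420.0 in WT-Veh (log2 fold change -0.46, SE 0.075, unadjusted p = 9.65e-05). In all of these KO-Veh mouse 3 was the lowest of the 6 mice. The other genes of this group were Hs3st2 (-0.52), a heparan sulfate sulfotransferase, Rgcc (-0.75), a regulator of the cell cycle, Ccnd1 (-0.75), which encodes cyclin D1 and lies near Shank2, Rmnd1 (-0.49), a protein of mitochondrial translation, and Dock5 (-0.71), an activator of the GTPase Rac.

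**Figure D2:**
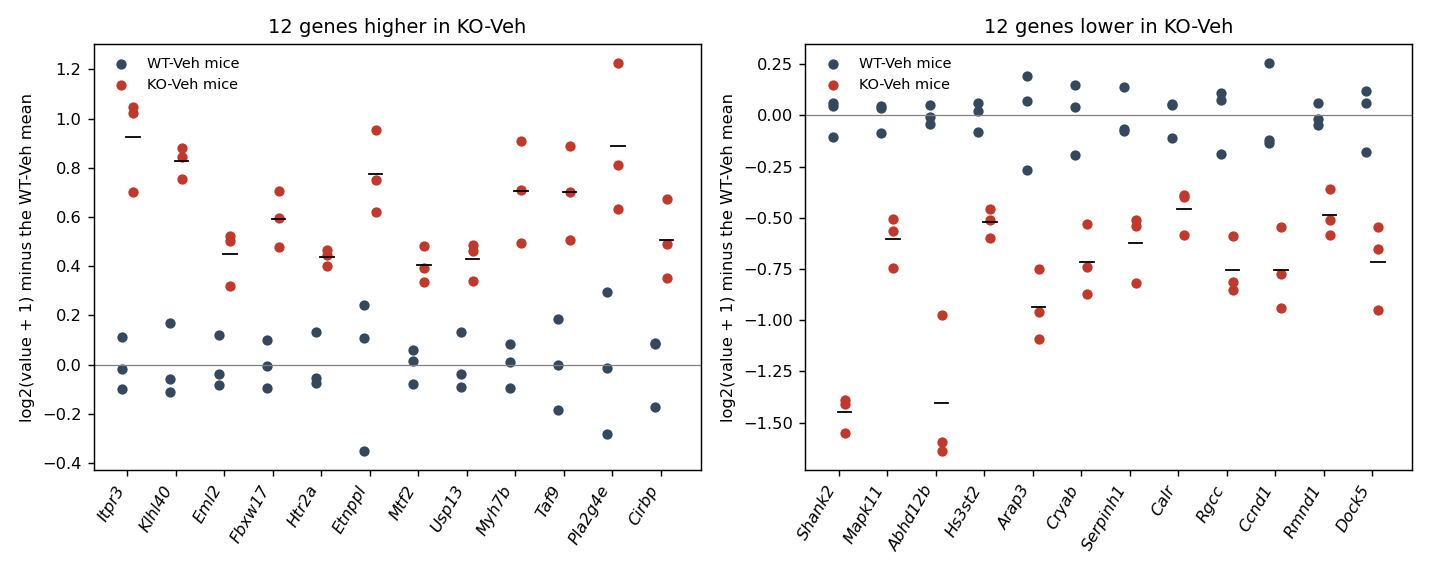
Each mouse's log2(value + 1) minus the WT-Veh mean of that gene, for the 12 protein-coding genes higher (left) and the 12 lower (right) in KO-Veh with the smallest p among those whose groups did not overlap; blue points are WT-Veh mice, red points KO-Veh mice and black lines KO-Veh means. Shank2 and Abhd12b are the lowest of the right panel, at mean differences of -1.45 and -1.40.

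The largest changes at an unadjusted p under 0.01, among genes with a mean of at least 50, were mostly in genes of low level. Hif3a, a member of the hypoxia-inducible factor family, was at 244, 402 and 502 in KO-Veh and 106, 108 and 230.1 in WT-Veh (log2 fold change 1.40, SE 0.31, unadjusted p = 0.00114). Wnt10b, a secreted Wnt ligand, was at 86.5, 90.2 and 88.2 in KO-Veh and 50.2, 27 and 32.6 in WT-Veh (log2 fold change 1.30, SE 0.24, unadjusted p = 0.000291). Wnt10b was nearly constant within KO-Veh, whereas Hif3a varied widely there and WT-Veh mouse 3 lay just under the lowest KO-Veh mouse. Stag3, a cohesin subunit known from meiosis, was at 103, 105 and 137 in KO-Veh and 45.9, 43.2 and 68.7 in WT-Veh (log2 fold change 1.13, unadjusted p = 0.000404), and Wdfy4, a protein of antigen cross-presentation, was at 67.5, 149 and 198 in KO-Veh and 53.2, 58.3 and 56.6 in WT-Veh (log2 fold change 1.15, unadjusted p = 0.00504). The uncharacterised gene 5330413P13Rik had a log2 fold change of 1.23. In the other direction, Gvin1, an interferon-induced GTPase, was at 15.3, 53.6 and 27.5 in KO-Veh and 139.6, 92.1 and 101 in WT-Veh (log2 fold change -1.91, unadjusted p = 0.000467), and Impg2, a matrix proteoglycan known from the retina, was at 35.8, 35.8 and 27.1 in KO-Veh and 46.5, 108 and 142 in WT-Veh (log2 fold change -1.43, unadjusted p = 0.00244). AC124502.3, a readthrough of B4gat1 and Brms1, had a log2 fold change of -1.74, and its reads cannot be told from those of these genes.

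Gene lists that follow the roles of the proteins were then read by counts and medians beside the shares over all genes. These shares were 6.73% nominally higher, 7.68% nominally lower and 49.6% with a negative log2 fold change. With 1 mouse left out, the genes nominally higher over all genes ran from 658 to 1399 and those lower from 858 to 1508. The list counts with 1 mouse left out are therefore to be read beside these ranges. Of 30 genes of endoplasmic reticulum chaperones and the unfolded protein response, 13 were nominally lower and 0 higher in KO-Veh, 24 had a negative log2 fold change, and the median was -0.14. This pathway senses misfolded proteins in the endoplasmic reticulum and raises the transcription of chaperones. None of the 30 passed adjustment over all genes. Calr, described above, had the smallest p. Manf, a secreted survival factor of that compartment, was at 721, 834 and 610.4 in KO-Veh and 996, 984 and 1184 in WT-Veh (log2 fold change -0.55, unadjusted p = 0.000831). The disulfide isomerases Pdia6, at 2404, 2586 and 1933 in KO-Veh and 3102, 3207 and 3073 in WT-Veh (log2 fold change -0.45, unadjusted p = 0.00088), and Pdia4, at 980.0, 1087 and 770.0 in KO-Veh and 1443, 1299 and 1239 in WT-Veh (log2 fold change -0.50, unadjusted p = 0.00172), also had groups without overlap. KO-Veh mouse 3 was again the lowest mouse for each of these. Being named for the smallest p favours groups without overlap. Over the list, 13 genes were lower without overlap and 1 was higher, against 10.7% and 9.73% of all genes. With 1 mouse left out at a time, the number nominally lower ran from 11 (without KO-Veh mouse 3) to 14 (without WT-Veh mouse 3).

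The list of cytosolic heat shock proteins and their partners, many of which the factor HSF1 induces upon stress, showed the same direction. It also holds the mitochondrial chaperone genes Hspe1 (-0.26, nominally lower) and Hspd1 (-0.15, not nominal) and the factor genes Hsf1 and Hsf2. Of 26 genes, 16 were nominally lower and 1 higher, with a median of -0.20. The count depended on the mice, running from 9 (without KO-Veh mouse 3) to 16 (without WT-Veh mouse 1 or WT-Veh mouse 3) with 1 mouse left out. Beside Cryab, the smallest p belonged to Hspa1b, an inducible Hsp70 gene, at 339, 326 and 393 in KO-Veh and 564, 508 and 501 in WT-Veh (log2 fold change -0.57, SE 0.10, unadjusted p = 0.000231). Hspa1b and its neighbour Hspa1a are near-identical, so reads may have been divided between them. Hspb1, which encodes Hsp27, was at 135, 165 and 126 in KO-Veh and 211, 234 and 242 in WT-Veh (log2 fold change -0.70, unadjusted p = 0.000525), and Stip1, a co-chaperone that links Hsp70 to Hsp90, was at 3794, 3902 and 3536 in KO-Veh and 4295, 4899 and 5266 in WT-Veh (log2 fold change -0.36, unadjusted p = 0.00109).

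The promoters of the leading chaperone genes are shown because the best known elements of both stress pathways lie close to transcription starts. Each is the RefSeq sequence from 250 bases before to 50 bases after the start (GRCm38.p6), written 5′ to 3′ on the strand of the gene, with matches in capitals. They were searched on both strands for the endoplasmic reticulum stress element (ERSE, CCAAT and CCACG with any 9 bases between them), its other form (ERSE-II, ATTGG and CCACG with any 1 base between them) and a heat shock element (GAA, TTC and GAA with any 2 bases between neighbouring units). ERSE and ERSE-II share the letters CCACG. Only exact matches were searched, so a stretch that differs from a motif by a single base was not marked or counted. Calr (chr8:84846882-84847181, minus strand) holds an ERSE on the opposite strand that begins 162 bases before the start, and Pdia6 (chr12:17266339-17266638, plus strand) holds a forward ERSE 98 bases before it.
Calr: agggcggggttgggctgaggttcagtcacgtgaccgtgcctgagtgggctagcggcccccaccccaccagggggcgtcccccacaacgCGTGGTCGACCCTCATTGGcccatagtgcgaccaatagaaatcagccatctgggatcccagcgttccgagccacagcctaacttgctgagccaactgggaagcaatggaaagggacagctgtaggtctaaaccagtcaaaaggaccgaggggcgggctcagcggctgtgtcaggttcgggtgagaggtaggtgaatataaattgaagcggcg
Pdia6: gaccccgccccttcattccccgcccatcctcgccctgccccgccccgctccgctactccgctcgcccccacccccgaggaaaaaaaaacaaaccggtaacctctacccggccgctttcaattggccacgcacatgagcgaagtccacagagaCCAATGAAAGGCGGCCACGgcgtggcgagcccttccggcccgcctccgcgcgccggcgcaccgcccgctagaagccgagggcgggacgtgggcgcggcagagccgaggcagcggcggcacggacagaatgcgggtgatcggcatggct
Pdia4 (chr6:47813463-47813762, minus strand), Hspa1b (chr17:34959189-34959488, minus strand), Hspb1 (chr5:135887669-135887968, plus strand) and Stip1 (chr19:7039977-7040276, minus strand) held no match to any of the motifs in this window.
Pdia4: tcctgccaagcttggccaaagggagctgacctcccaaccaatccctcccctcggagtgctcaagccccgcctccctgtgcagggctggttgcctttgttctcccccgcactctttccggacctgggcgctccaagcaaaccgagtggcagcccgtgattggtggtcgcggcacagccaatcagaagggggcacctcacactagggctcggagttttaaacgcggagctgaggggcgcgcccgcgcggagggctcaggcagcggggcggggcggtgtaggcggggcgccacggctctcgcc
Hspa1b: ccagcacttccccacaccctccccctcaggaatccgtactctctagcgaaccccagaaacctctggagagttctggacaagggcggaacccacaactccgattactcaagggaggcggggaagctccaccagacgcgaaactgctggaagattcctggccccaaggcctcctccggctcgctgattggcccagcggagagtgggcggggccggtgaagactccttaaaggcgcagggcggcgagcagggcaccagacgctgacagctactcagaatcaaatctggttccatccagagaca
Hspb1: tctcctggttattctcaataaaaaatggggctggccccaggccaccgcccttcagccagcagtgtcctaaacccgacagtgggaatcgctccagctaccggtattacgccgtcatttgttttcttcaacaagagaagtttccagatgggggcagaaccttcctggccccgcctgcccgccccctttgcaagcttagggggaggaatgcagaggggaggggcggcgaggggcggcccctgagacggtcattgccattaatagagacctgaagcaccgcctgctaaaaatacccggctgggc
Stip1: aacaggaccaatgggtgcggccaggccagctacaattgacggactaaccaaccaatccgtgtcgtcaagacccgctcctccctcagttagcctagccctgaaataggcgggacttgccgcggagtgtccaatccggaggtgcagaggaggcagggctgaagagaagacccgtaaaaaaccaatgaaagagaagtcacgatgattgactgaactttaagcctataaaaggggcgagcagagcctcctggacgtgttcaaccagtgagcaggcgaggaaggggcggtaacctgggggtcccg
Manf and Cryab were not among the promoters used. An ERSE was found in 9 of the 26 chaperone genes with a promoter (Calr, Canx, Creld2, Derl3, Dnajc3, Hsp90b1, Hspa5, Pdia6 and Syvn1), against 0.119% of 32851 promoters of that length, and an ERSE-II in 2 (Dnajb11 and Herpud1), against 0.0365%. The heat shock element was found in 4 of 21 heat shock genes with a promoter (Chordc1, Hspd1, Hspe1 and Hsph1), against 0.603%. A gene was counted if any of its promoters held a match, whereas the percentages are shares of single promoters. The lists were made of genes of these pathways, and the counts do not depend on the expression values. Hspd1 and Hspe1 share 1 promoter region in opposite directions.

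Endothelial cells line the vessels and form the blood-brain barrier. Of 24 endothelial markers, 15 were nominally lower and 1 higher, 23 had a negative log2 fold change, and the median was -0.28. The higher one was Vwf (0.35). The barrier transporter genes Slc2a1 (-0.041), Abcb1a (-0.066) and Slco1a4 (-0.065) were among those not nominal. Beside Arap3, Eng, a co-receptor of TGF-beta, was at 1036, 1086 and 1162 in KO-Veh and 1375, 1427 and 1392 in WT-Veh (log2 fold change -0.35, SE 0.071, unadjusted p = 0.000509). Cldn5, the tight junction protein of the blood-brain barrier, was at 1286, 1109 and 1081 in KO-Veh and 1586, 1735 and 1396 in WT-Veh (log2 fold change -0.44, unadjusted p = 0.00104), and Flt1, a receptor of VEGF, was at 1664, 1504 and 1698 in KO-Veh and 2025, 2077 and 1907 in WT-Veh (log2 fold change -0.31, unadjusted p = 0.00161). Summed over the list, KO-Veh mice ranged from 18764 to 19748 and WT-Veh mice from 21573 to 22901, so that the groups did not overlap. The count ran from 11 (without WT-Veh mouse 2) to 17 (without WT-Veh mouse 1) with 1 mouse left out. All 10 markers of pericytes and smooth muscle had a negative log2 fold change (median -0.25), and 4 were nominally lower, of which Rgs5 was the clearest, at 1799, 2018 and 2193 in KO-Veh and 2406, 2876 and 2579 in WT-Veh (log2 fold change -0.39, unadjusted p = 0.00144). The others were Higd1b (-0.61), Acta2 (-0.29) and Vtn (-0.25). Leaving out any mouse but KO-Veh mouse 3 brought that count to 2, and the median was -0.14 without KO-Veh mouse 2.

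Among 34 collagens, basement membrane proteins and their processing enzymes, 12 were nominally lower and 2 higher (median -0.16). Hspg2, the basement membrane proteoglycan perlecan, was at 788, 1048 and 884 in KO-Veh and 1690.2, 1459.7 and 1228 in WT-Veh (log2 fold change -0.68, SE 0.13, unadjusted p = 0.000306). Col1a1, a chain of fibrillar type I collagen, was at 732, 631 and 531 in KO-Veh and 1374, 982 and 897 in WT-Veh (log2 fold change -0.77, unadjusted p = 0.00063), and Col1a2, its partner chain, was at 925, 1147 and 982 in KO-Veh and 1521, 1371 and 1299.8 in WT-Veh (log2 fold change -0.46, unadjusted p = 0.000657). WT-Veh mouse 1 was the highest of the 6 mice for all of these. The 2 nominally higher genes of the list were Sparc (0.44) and Fbn1 (0.42). Summed over the list, KO-Veh mice ranged from 50779 to 58094 and WT-Veh mice from 51008 to 57666, so that the groups overlapped. The median without WT-Veh mouse 3 was -0.078. Fibroblasts of the meninges express these collagens. Of 10 markers of these fibroblasts, only Igfbp2, an IGF-binding protein, was nominally lower, at 646, 911 and 647 in KO-Veh and 1000.2, 1208 and 1371 in WT-Veh (log2 fold change -0.71, unadjusted p = 0.000681), Aldh1a2, an enzyme of retinoic acid synthesis, was nominally higher (0.38), and the median was 0.094. Igf2 was likewise the only one of 13 choroid plexus markers that was nominally lower, at 2506, 2499.8 and 2202 in KO-Veh and 2866, 3336 and 3927 in WT-Veh (log2 fold change -0.48, unadjusted p = 0.000993), and it is also expressed by the meninges. The next smallest p values belonged to Mgp (0.31) and Cemip (0.11) among meningeal markers and to Kl (-0.21), Kcnj13 (-0.30) and Calml4 (-0.42) among choroid plexus markers, none of them nominal. Without KO-Veh mouse 3, 2 choroid plexus markers were nominally higher, and the median was 0.049. Without WT-Veh mouse 1, 2 were nominally lower.

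The 4 globin genes were nominally lower, with Hbb-bs, an adult beta-globin, at 4534, 6325 and 2639 in KO-Veh and 6426, 8331 and 7169 in WT-Veh (log2 fold change -0.78, SE 0.24, unadjusted p = 0.00909). The other globin genes were Hba-a2 (-0.81), Hbb-bt (-1.23) and Hba-a1 (-0.63), and near-identical copies may share reads. The median of the 5 red cell genes was -0.78, and KO-Veh mouse 3 was the lowest for each. Without that mouse the median was -0.43 and 3 of the 5 were nominally lower, and without WT-Veh mouse 2 only 1 was. Summed over the list, KO-Veh mice ranged from 7567 to 18764 and WT-Veh mice from 19448 to 26320, and the part of blood in the vascular lists was not tested.

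Oligodendrocytes wrap axons in myelin, a process that is under way at this age. Each of the 20 markers of oligodendrocytes and myelin had a negative log2 fold change, 14 were nominally lower, and the median was -0.25. Ermn, a cytoskeletal protein of myelin, was at 1704, 1623 and 1451 in KO-Veh and 2014, 2098 and 2128 in WT-Veh (log2 fold change -0.39, SE 0.075, unadjusted p = 0.000367). Ugt8a, the enzyme that makes galactosylceramide, was at 3806, 4037 and 3819.8 in KO-Veh and 4759, 5138 and 4663 in WT-Veh (log2 fold change -0.32, unadjusted p = 0.000417), Cnp, a myelin phosphodiesterase, was at 18694, 19682 and 17064 in KO-Veh and 21979.6, 21891 and 24464 in WT-Veh (log2 fold change -0.30, unadjusted p = 0.00192), and the transcription factor gene Olig1 was at 4668, 4705 and 4712 in KO-Veh and 5374, 5879 and 5476 in WT-Veh (log2 fold change -0.25, unadjusted p = 0.00173). The spread within groups was small for these genes, and no KO-Veh mouse reached a WT-Veh mouse. They were the members with the smallest p, a choice that favours a small spread and separated groups. Over the list, 13 of the 20 were lower without overlap, against 10.7% of all genes. The count ran from 11 (without KO-Veh mouse 1 or KO-Veh mouse 2) to 15 (without WT-Veh mouse 1) with 1 mouse left out. Of 8 markers of oligodendrocyte precursors, Bcas1, which premyelinating cells express, was at 3059, 3158 and 3189.8 in KO-Veh and 3681, 4274 and 4942 in WT-Veh (log2 fold change -0.44, unadjusted p = 0.000759) and Gpr17 was nominally lower (-0.24), Vcan was nominally higher (0.17), and Pdgfra, the defining receptor of these cells, did not differ nominally (0.023), nor did Lhfpl3 (0.17). The number lower of these 8 was 3 without WT-Veh mouse 1, and the number higher was 2 without KO-Veh mouse 1 and 0 without any other mouse.

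Genes of cholesterol synthesis, which myelinating cells need in bulk, were nominally lower in 9 of 19 and higher in 0 (median -0.15). Idi1, an isomerase of the mevalonate pathway, was at 1431, 1568 and 1286 in KO-Veh and 1826, 1991 and 1944 in WT-Veh (log2 fold change -0.43, SE 0.083, unadjusted p = 0.000355), and Nsdhl, a sterol dehydrogenase, was at 573, 594 and 494 in KO-Veh and 732, 722 and 779.9 in WT-Veh (log2 fold change -0.43, unadjusted p = 0.000847). Msmo1 (-0.42) and Sc5d (-0.22), which act later in the pathway, followed. Without KO-Veh mouse 3, 4 of the 19 were nominally lower, and without WT-Veh mouse 2, 5 were. Neuronal and progenitor intermediate filaments were nominally lower in 5 of 7 (median -0.17). The neurofilament genes Nefm, at 7739.6, 8475 and 7118 in KO-Veh and 10260.2, 10249 and 10079 in WT-Veh (log2 fold change -0.39, SE 0.07, unadjusted p = 0.000184), and Nefh, at 2241, 2555 and 2223 in KO-Veh and 2967, 2869 and 3062 in WT-Veh (log2 fold change -0.34, unadjusted p = 0.000646), encode the cytoskeleton of large axons. Nes, which encodes nestin of progenitors and of vessels, had a log2 fold change of -0.50, and Ina, which encodes internexin, -0.17. The count was 3 without KO-Veh mouse 1, KO-Veh mouse 3, WT-Veh mouse 1 or WT-Veh mouse 2.

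Microglia and astrocyte lists gave less even pictures. Of 15 microglia markers, 6 were nominally lower and 0 higher (median -0.28), but WT-Veh mouse 1 lay among the KO-Veh mice for Fcrls, a scavenger receptor, at 402, 443 and 287 in KO-Veh and 433, 719 and 667 in WT-Veh (log2 fold change -0.67, unadjusted p = 0.00716), and for C1qb, a chain of complement C1q, at 727, 719 and 697 in KO-Veh and 726, 932 and 1082 in WT-Veh (log2 fold change -0.33, unadjusted p = 0.0237). P2ry12, a purine receptor of resting microglia, had a log2 fold change of -0.29 and C1qa -0.42. The count was 2 without KO-Veh mouse 1 or WT-Veh mouse 2, 3 without KO-Veh mouse 3 or WT-Veh mouse 3, 4 without KO-Veh mouse 2 and 8 without WT-Veh mouse 1, and the median ranged from -0.15 without WT-Veh mouse 3 to -0.32 without WT-Veh mouse 1. Astrocyte markers went both ways, with 5 of 21 nominally lower and 3 higher. Aqp4, the water channel of astrocyte endfeet, was lower, at 2627, 3595 and 2971 in KO-Veh and 3875, 4690.4 and 4209 in WT-Veh (log2 fold change -0.48, unadjusted p = 0.00128), and so was Acsbg1, an acyl-CoA synthetase (-0.31), whereas Agt, the precursor of angiotensin, was higher, at 2211, 1954 and 2649.6 in KO-Veh and 1490.4, 1546 and 1753 in WT-Veh (log2 fold change 0.50, unadjusted p = 0.000864), as was Etnppl. Without KO-Veh mouse 3 or WT-Veh mouse 3 the list had 3 lower and 4 higher, and without WT-Veh mouse 1 it had 8 lower and 2 higher.

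Of 11 complement genes outside microglial C1q, 2 were nominally higher, 1 lower and 8 neither (median -0.037). C4b, which astrocytes and neurons express, was at 1119.7, 728 and 1370.2 in KO-Veh and 567, 565 and 605 in WT-Veh (log2 fold change 0.84, SE 0.18, unadjusted p = 0.000894), and C2, its partner in the classical pathway, was at 86.7, 51.8 and 88.8 in KO-Veh and 43.5, 41.8 and 32.1 in WT-Veh (log2 fold change 0.91, unadjusted p = 0.00503). KO-Veh mouse 2 was the lowest of its group for both, and C3 showed the same, with 65.4, 12.8 and 50 in KO-Veh and 15, 15.4 and 20.9 in WT-Veh. Cfp, which encodes properdin, was lower, at 173, 183 and 169 in KO-Veh and 234, 275 and 341 in WT-Veh (log2 fold change -0.68, unadjusted p = 0.00083). The number higher was 3 without KO-Veh mouse 2, the number lower was 2 without WT-Veh mouse 1, and the median was 0.15 without KO-Veh mouse 2 and 0.10 without WT-Veh mouse 3.

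Of 33 postsynaptic scaffold and adhesion genes other than Shank2, 3 were nominally higher and 4 lower, and the median log2 fold change was 0.054. Abi1, an actin regulator that binds Shank proteins, was at 3153, 3166 and 3126 in KO-Veh and 2426, 2491 and 2715 in WT-Veh (log2 fold change 0.31, SE 0.064, unadjusted p = 0.00063). Homer1, which joins Shank to metabotropic receptors, was at 4734, 4143 and 3623 in KO-Veh and 5336, 5353 and 4507 in WT-Veh (log2 fold change -0.29, unadjusted p = 0.0177), and its groups overlapped. Efnb2, an ephrin ligand gene, was at 2496, 1912 and 2298 in KO-Veh and 1809, 1753 and 1438 in WT-Veh (log2 fold change 0.42, unadjusted p = 0.00355), and Ephb1, an ephrin receptor gene, was at 1463, 1508 and 1579.8 in KO-Veh and 1973, 1939 and 1768 in WT-Veh (log2 fold change -0.32, unadjusted p = 0.00102). Glutamate receptors gave 2 higher and 2 lower of 25 (median 0.086). The kainate receptor subunit gene Grik4 was the clearest, at 1139.7, 1077 and 1169 in KO-Veh and 949.5, 865 and 876 in WT-Veh (log2 fold change 0.33, unadjusted p = 0.0012), and among NMDA receptor subunits Grin2c was nominally lower, at 1498, 1619.6 and 1633 in KO-Veh and 1857, 1689 and 1864 in WT-Veh (log2 fold change -0.19, unadjusted p = 0.0251). Grm3 (-0.25), a metabotropic receptor gene, was nominally lower. With 1 mouse left out, the scaffold genes nominally higher ran from 2 (without KO-Veh mouse 3) to 7 (without WT-Veh mouse 1) and those lower from 1 (without KO-Veh mouse 3, WT-Veh mouse 1 or WT-Veh mouse 2) to 6 (without WT-Veh mouse 3). For glutamate receptors the number higher ran from 1 (without KO-Veh mouse 3, WT-Veh mouse 2 or WT-Veh mouse 3) to 7 (without WT-Veh mouse 1), and the number lower was 1 whichever mouse was left out. Without WT-Veh mouse 3 the medians were 0.022 for scaffolds and 0.028 for glutamate receptors, and without KO-Veh mouse 1 the scaffold median was 0.027, and it was 0.10 without WT-Veh mouse 1.

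Inhibitory synapse genes gave 2 higher and 1 lower of 20, the latter being Gabrd, the delta subunit of extrasynaptic GABA-A receptors, at 1629.5, 1698 and 1512 in KO-Veh and 1973, 1976 and 1837 in WT-Veh (log2 fold change -0.26, unadjusted p = 0.00418). The higher genes were Gphn (0.24) and Gabrg3 (0.24). Without KO-Veh mouse 3 or WT-Veh mouse 3, 0 of the 20 were nominally higher, and without WT-Veh mouse 1, 4 were. The median fell from 0.057 to 0.024 without WT-Veh mouse 3. The presynaptic release machinery gave 1 in each direction of 27, Nrxn2 (0.19) and Cplx1 (-0.23), and Cplx2 (-0.14) was not nominal. Its number higher ran from 0 (without KO-Veh mouse 3) to 2 (without WT-Veh mouse 1 or WT-Veh mouse 3) and its number lower from 0 (without KO-Veh mouse 1) to 2 (without WT-Veh mouse 3) with 1 mouse left out, and its median was -0.0048 without WT-Veh mouse 3. Serotonin receptors couple neurons to input from the raphe nuclei. Beside Htr2a, Htr2c was at 2812, 2511 and 2852 in KO-Veh and 2188, 2352 and 1864 in WT-Veh (log2 fold change 0.36, unadjusted p = 0.0028) and the channel-type receptor gene Htr3a, which marks a class of interneurons, was at 324, 225 and 302 in KO-Veh and 212, 182 and 198 in WT-Veh (log2 fold change 0.51, unadjusted p = 0.00662). Those 3 were the only ones nominally higher among 16 serotonin and dopamine receptors, and Drd1, the D1 dopamine receptor of striatal neurons, was nominally lower (-0.26, unadjusted p = 0.013). Without WT-Veh mouse 1, 5 of the 16 were higher and 2 lower, and Drd1 was not nominal without KO-Veh mouse 2 or WT-Veh mouse 2.

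Calcium store genes were described because Itpr3 was called. Of 14, Itpr3 and Orai2, a store-operated calcium channel, at 3782, 3492 and 3746 in KO-Veh and 3306, 3074 and 3112 in WT-Veh (log2 fold change 0.22, unadjusted p = 0.00625), were nominally higher, and Ryr2, the ryanodine receptor of neurons, at 7394, 7333 and 6767 in KO-Veh and 7984, 8205 and 8399 in WT-Veh (log2 fold change -0.19, unadjusted p = 0.00849), was lower, with Ryr1 (-0.18) next. The number lower was 2 without KO-Veh mouse 3 and 3 without WT-Veh mouse 3. The MAP kinase list gave 7 lower and 3 higher of 27. Beside Mapk11, Rasgrp3, a calcium- and diacylglycerol-regulated activator of Ras, was at 271, 229 and 239 in KO-Veh and 387, 376 and 355 in WT-Veh (log2 fold change -0.60, SE 0.11, unadjusted p = 0.00022), and its relatives Rasgrp2 (-0.34) and Rasgrp4 (-0.82) were nominally lower as well. Without KO-Veh mouse 3, 3 of the 27 were nominally lower and 1 higher, and the number higher was also 1 without KO-Veh mouse 1 or WT-Veh mouse 2. The median of the list was -0.019 without WT-Veh mouse 3.

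Immediate early genes, which neuronal activity and handling both induce, had a median of -0.29, but 3 of 19 were nominally lower and the level differed widely among the mice of a group. Ier5 was at 1241, 1126 and 854 in KO-Veh and 1462, 1784 and 1709 in WT-Veh (log2 fold change -0.63, unadjusted p = 0.000593), without overlap between groups. Egr3, a transcription factor of activated neurons, was at 3895, 2985 and 2385 in KO-Veh and 3718, 4115 and 3539 in WT-Veh (log2 fold change -0.32, unadjusted p = 0.0487). Fosl2 (-0.41) was also nominally lower, and Nr4a2 (-0.17) was not nominal. The count ran from 1 (without KO-Veh mouse 2, KO-Veh mouse 3, WT-Veh mouse 2 or WT-Veh mouse 3) to 8 (without KO-Veh mouse 1) with 1 mouse left out, and the median was -0.06 without KO-Veh mouse 3.

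Cortical excitatory markers had a median of -0.011 (1 higher, Rasgrf2 at 0.23, and 1 lower, Neurod6 at -0.17, of 14, followed by Rorb at -0.17 and Foxp2 at 0.21) and interneuron markers 0.054, with Lhx6 (0.39), Gad2 (0.21) and Vip (0.30) nominally higher and Cck (-0.32) lower among 14. Striatal markers had a median of -0.12, with 8 of 9 negative and Drd1 and Penk (-0.20) nominally lower, and Drd2 (-0.13) was not nominal. Without KO-Veh mouse 2 or WT-Veh mouse 2, 0 of the striatal markers were nominally lower, and without WT-Veh mouse 1, 3 were. The thalamic list gave 1 in each direction of 7, with Tcf7l2 (0.23) higher and Rgs16 (-0.46) lower, followed by Lef1 (-0.25) and Synpo2 (0.17). Of 9 hypothalamic markers, Agrp was nominally higher, at 22.4, 9.25 and 35.1 in KO-Veh and 8.17, 9.42 and 3.21 in WT-Veh, levels at which the groups overlapped, and Avp (-0.18), Hcrt (0.21) and Oxt (-0.17) were not nominal. Midbrain dopamine and raphe markers had a median of 0.27, with 6 of 8 positive, 2 nominally higher and 0 lower. Without WT-Veh mouse 3 the median was 0.45 and 4 were higher, and without any other mouse but WT-Veh mouse 2, 1 was higher, with medians down to 0.15 without WT-Veh mouse 2 and 0.16 without WT-Veh mouse 1. Slc6a3, the dopamine transporter, was at 495, 506 and 506 in KO-Veh and 332, 403 and 402 in WT-Veh (log2 fold change 0.41, SE 0.10, unadjusted p = 0.00228), and Th, the enzyme that starts dopamine synthesis, was at 423, 416 and 419.8 in KO-Veh and 278, 350.0 and 394 in WT-Veh (log2 fold change 0.31, unadjusted p = 0.0326). Slc18a2 (0.23) and Foxa1 (0.39) were not nominal. The serotonin markers Tph2, at 52.2, 123 and 187 in KO-Veh and 66.2, 92.7 and 229.9 in WT-Veh, and Slc6a4, at 15.2, 105 and 136 in KO-Veh and 31.7, 42.2 and 189 in WT-Veh, varied far more within each group, and WT-Veh mouse 3 was the highest for both. The part of such differences between mice in Slc6a3 and Th was not tested.

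Of 81 cytosolic ribosomal proteins, 11 were nominally lower and 1 higher (median -0.081). The smallest p there belonged to the higher one, Rpl5 (0.37, unadjusted p = 0.00206), and Rpl12 (-0.39) and Rpl23a (-0.20) were among the lower ones. Copies of ribosomal protein genes across the genome can share their reads. For 78 mitochondrial ribosomal proteins the counts were 11 and 1 (median -0.08), and for 82 nuclear-encoded respiratory chain subunits they were 15 and 0 (median -0.081). Mrps21 was the clearest of these, at 435, 480.2 and 463 in KO-Veh and 550.3, 627 and 708 in WT-Veh (log2 fold change -0.45, unadjusted p = 0.00164), followed in its list by Mrpl12 (-0.34), Mrps6 (-0.32) and Mrpl46 (-0.30). The leading nuclear-encoded subunits were Ndufs5 (-0.27), Uqcrb (-0.32), Uqcrh (-0.28) and Ndufc1 (-0.38). Of the 13 mitochondrially encoded subunits, 6 were nominally lower (median -0.29), with mt-Nd2 at 36467, 47226 and 39785 in KO-Veh and 51989.9, 55889 and 72538 in WT-Veh (log2 fold change -0.54, unadjusted p = 0.00157), followed by mt-Cytb (-0.30), mt-Nd1 (-0.33) and mt-Nd4 (-0.20). Their median was -0.19 without WT-Veh mouse 3, the mouse with the high mitochondrial share, and -0.17 without KO-Veh mouse 1. The counts of the 4 lists depended on the mice, with from 5 (without KO-Veh mouse 3 or WT-Veh mouse 3) to 20 (without WT-Veh mouse 1), from 5 (without KO-Veh mouse 1 or WT-Veh mouse 3) to 16 (without WT-Veh mouse 1), from 7 (without KO-Veh mouse 3) to 24 (without WT-Veh mouse 1) and from 1 (without KO-Veh mouse 1) to 8 (without WT-Veh mouse 2) lower with 1 mouse left out. Without WT-Veh mouse 2 the cytosolic ribosomal list had 7 nominally lower and 6 higher. Its median was then -0.051, with 49 of 81 negative.

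The remaining lists gave few nominal differences. Cell cycle genes gave Ccnd1 lower and Ccne2, a cyclin of DNA synthesis, higher (0.61) of 20, with Mcm2 (-0.27) and Mcm6 (0.21) next, and 4 were lower without KO-Veh mouse 2. Clock genes gave Bhlhe41 higher (0.22) and Per2 lower (-0.28) of 15, with Cry2 (0.13) and Nr1d1 (0.13) next, and the number higher ran from 0 (without KO-Veh mouse 3 or WT-Veh mouse 2) to 4 (without WT-Veh mouse 3) with 1 mouse left out. Among 17 CLK kinases and nuclear noncoding RNAs, Neat1, the RNA of paraspeckles, was at 2786, 1792 and 3167 in KO-Veh and 1608, 1689.8 and 1921 in WT-Veh (log2 fold change 0.53, unadjusted p = 0.0109), and KO-Veh mouse 2 lay within the WT-Veh range. Clk3 (-0.27), a kinase of splicing factors, and Mirg (-0.28), an imprinted noncoding RNA, were nominally lower, and its neighbour Rian (-0.10) was not nominal. Without WT-Veh mouse 3, 3 of the 17 were higher, and without KO-Veh mouse 3, 3 were lower and 0 higher.

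**Figure D3:**
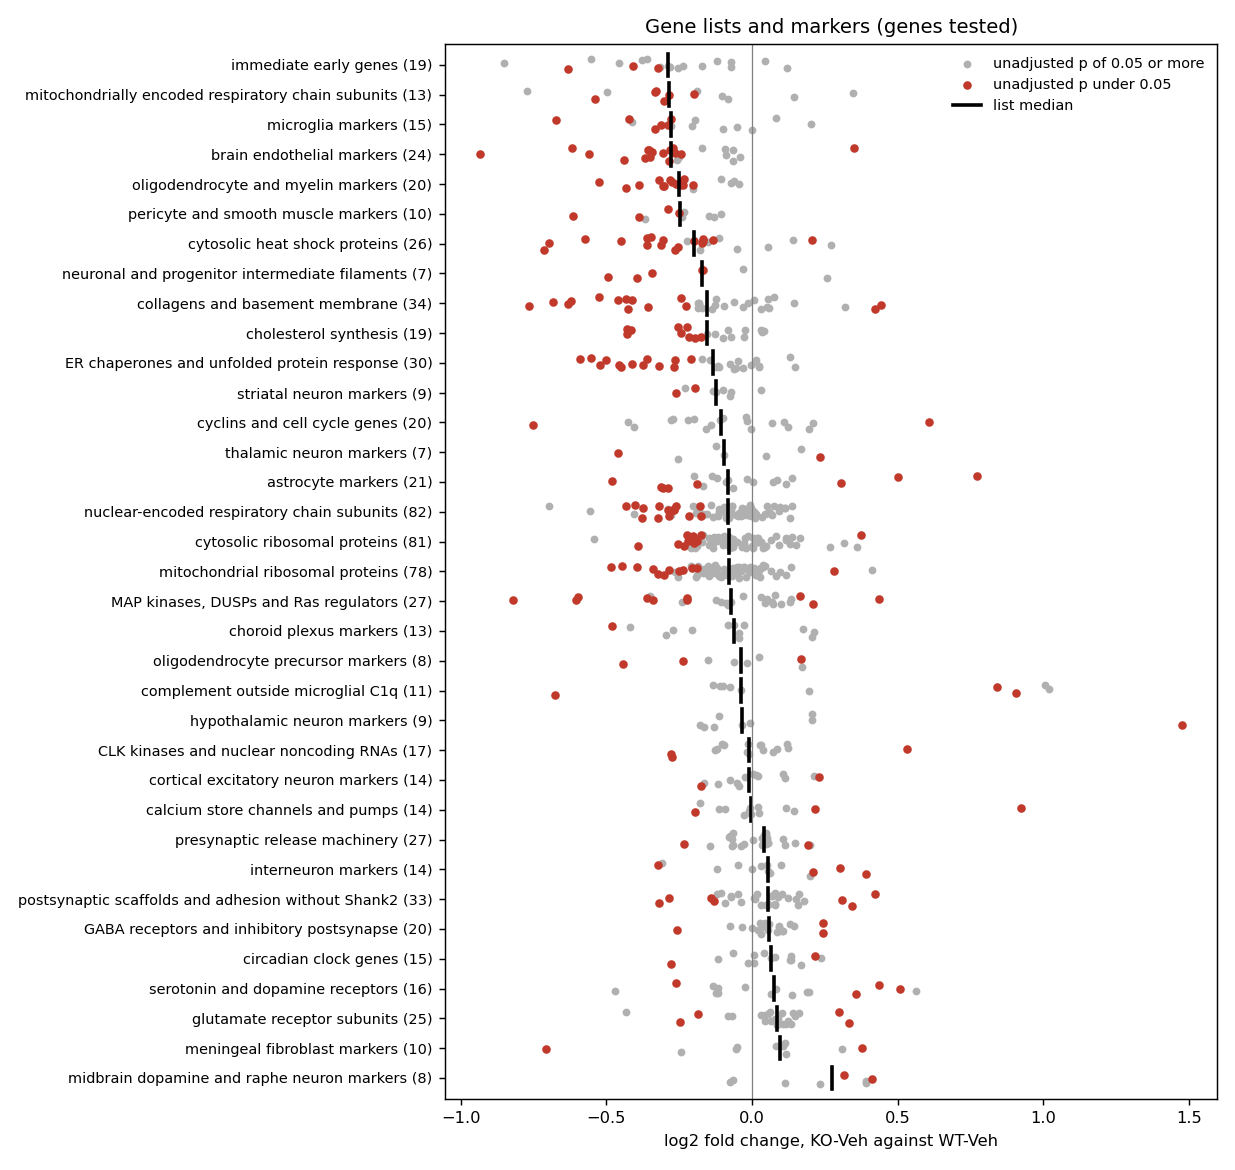
Log2 fold changes of KO-Veh against WT-Veh for the tested genes of each list (horizontal axis), 1 point per gene, in red where the unadjusted p was under 0.05, with a black bar at the list median; lists with fewer than 7 tested genes (red cell and cerebellar genes) are left out. Myelin and pericyte genes all lie below 0, whereas the 4 synaptic lists have medians between 0.041 and 0.086, which without WT-Veh mouse 3 lie between -0.0048 and 0.028.

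Genes near Shank2 on chromosome 7 held several of the clearest differences. Within 5 Mb of the gene 108 were tested, of which 2 were called, Shank2 and Gm26793, 11 were nominally higher and 15 lower, and 29 had groups without overlap. Over all genes 14.4% differed nominally and 20.4% had groups without overlap. On the side towards the chromosome end, 5 of 11 genes differed nominally, and all of these lay between 0.89 and 1.30 Mb from the start of Shank2. The nearest neighbours on that side, Cttn (0.037), Ppfia1 (0.022) and Fadd (0.19), had overlapping groups.

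Bc1, a small noncoding RNA of dendrites, was at 133, 138 and 183 in KO-Veh and 522, 478 and 259 in WT-Veh (log2 fold change -1.42, SE 0.24, unadjusted p = 0.000128). Ccnd1 was at 931, 706 and 792 in KO-Veh and 1247, 1619 and 1237 in WT-Veh (unadjusted p = 0.000115), and its reads cannot be separated from those of the overlapping gene LTO1. Tpcn2, a lysosomal ion channel, was at 100.3, 95.1 and 105 in KO-Veh and 161, 178 and 153 in WT-Veh (log2 fold change -0.71, unadjusted p = 0.000424), and Mrgprf, an orphan receptor, was higher, at 61, 72.9 and 75.7 in KO-Veh and 33.8, 31.3 and 49.8 in WT-Veh (log2 fold change 0.87, unadjusted p = 0.0037). On the other side, at more than 4 Mb, Adam8, a membrane metalloprotease, was lower (-0.93, unadjusted p = 0.000281) and Cfap46, a ciliary protein, was higher (0.69, unadjusted p = 0.000596), and Deaf1, a transcription factor, was higher nearer to it (0.42, unadjusted p = 0.00218). The pseudogene Gm4459, the lowest point of that side, was at 5.11, 0 and 0 in KO-Veh and 0, 65.4 and 156 in WT-Veh, with overlapping groups. Of the list genes above, Th, Igf2 and Ccnd1 lie in this window, as does Dhcr7 (-0.18, unadjusted p = 0.0416), the last enzyme of cholesterol synthesis and the nearest neighbour on that side. Neighbours thus differed in both directions at unequal distances, and the deletion and alleles that lie beside it on the same chromosome cannot be told apart in this design.

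**Figure D4:**
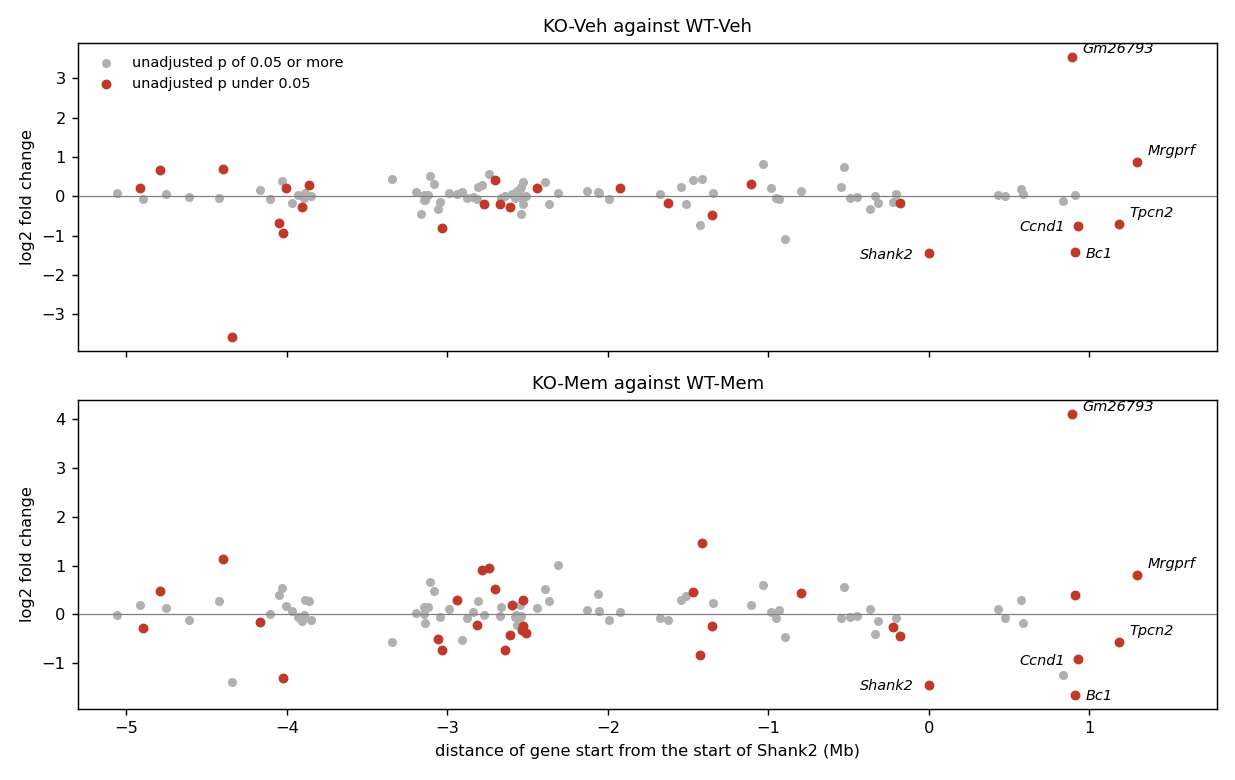
Log2 fold change (vertical axis) near Shank2, up to 5 Mb from it, against the distance of the gene start from that of Shank2 in Mb, for genes that lie at least partly in that window, in vehicle mice (top) and memantine mice (bottom, not used in the comparison); red points have an unadjusted p under 0.05. Gm26793, Bc1, Ccnd1, Tpcn2 and Mrgprf lie on the same side of 0 in both panels.

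The KO-Mem and WT-Mem mice, which share no animal with the comparison, give the same genotypes again under memantine. Of the 17646 genes tested there 12 were called (0.068%), and 10.1% were nominally higher and 10.8% lower. For the 24 leading protein-coding genes, 23 had the same sign, 19 of them at an unadjusted p under 0.05 and 2 with adjustment, Shank2 and Ccnd1. Shank2 was at 2817, 2706 and 3178 in KO-Mem and 7936, 8548 and 7156 in WT-Mem. Over the 24 genes, which were chosen by their vehicle values, the median size was 0.70 under vehicle and 0.62 in the same direction under memantine. For the 12 higher genes these medians were 0.65 and 0.41, and for the 12 lower genes 0.71 and 0.71. Cryab (-0.73, limma adjusted p = 0.0884), Mapk11 (-0.62, limma adjusted p = 0.0884) and Calr (-0.69, limma adjusted p = 0.0884) had log2 fold changes at least as large as under vehicle. Wnt10b was 194, 142 and 155 in KO-Mem and 34.6, 44.4 and 61.8 in WT-Mem, and passed there (log2 fold change 1.81, limma adjusted p = 0.0343).

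The genes that did not repeat at an unadjusted p under 0.05 were Fbxw17 (-0.078), Htr2a (0.089), Usp13 (0.086), Myh7b (0.24) and Arap3 (-0.25). Itpr3 was at 359, 301 and 243 in KO-Mem and 248, 227 and 223 in WT-Mem, a log2 fold change of 0.35 (limma adjusted p = 0.22) against 0.92 under vehicle. The difference between the genotype effects of the treatments was tested as an interaction over all 12 mice. It gave 0 genes at an adjusted p under 0.05 by limma and 840 of 17655 (4.76%) at an unadjusted p under 0.05, 2.41% with a positive and 2.34% with a negative difference. For Itpr3 the difference was -0.57 (unadjusted p = 0.012), for Fbxw17 -0.67 (unadjusted p = 0.00287), for Usp13 -0.34 (unadjusted p = 0.0285) and for Myh7b -0.47 (unadjusted p = 0.0438), the 4 of the 24 leading genes under 0.05. It was for Arap3 0.68 (unadjusted p = 0.0529) and for Htr2a -0.35 (unadjusted p = 0.0645). The genotype effect on these genes was therefore not shown to depend on memantine after adjustment.

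**Figure D5:**
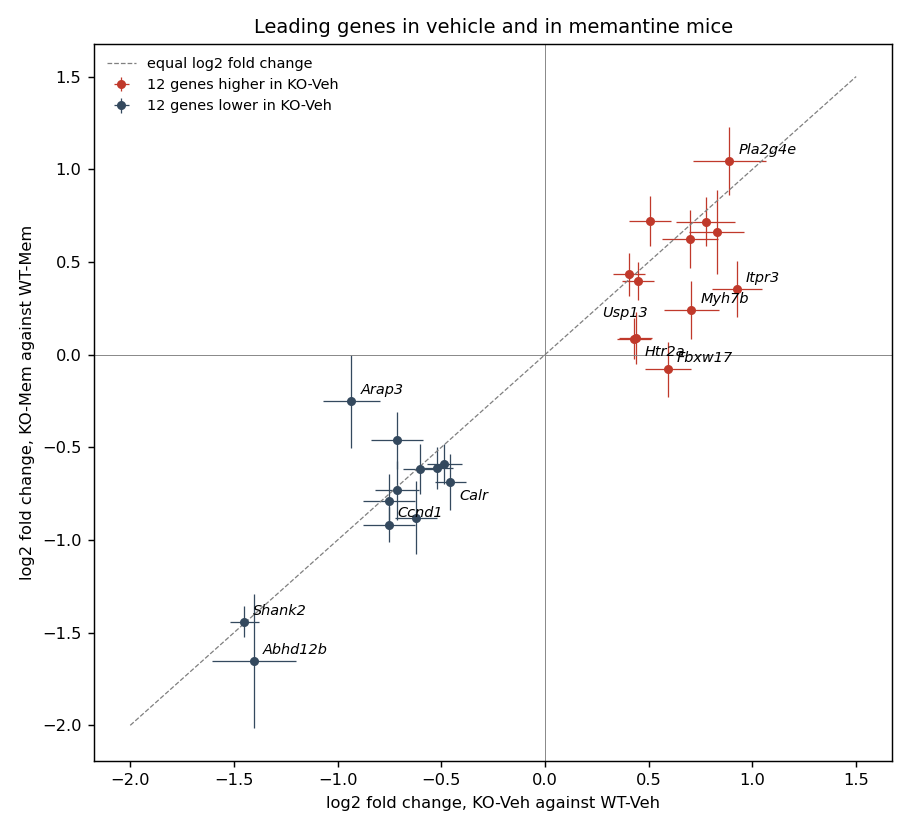
Log2 fold change of the knockout in vehicle mice (horizontal axis) and in memantine mice (vertical axis) for the 24 leading genes, with SE bars from the fits; the dashed line marks equal values. Of the 24 points 23 lie on the same side of 0 in both, and Fbxw17 does not.

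For the lists, the memantine mice gave medians of -0.21 for endoplasmic reticulum chaperones (14 of 30 nominally lower, 0 higher), -0.18 for heat shock proteins (12 of 26 lower, 1 higher), -0.35 for myelin genes (13 of 20 lower, 0 higher) and -0.45 for cholesterol synthesis (18 of 19 lower, 0 higher). Endothelial markers had a median of -0.18, with 6 of 24 nominally lower against 15 under vehicle. Red cell genes had a median of -0.84 there. The difference between the treatments was not tested for lists.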

How the data were processed

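Bulk RNA-seq of brain tissue from 12 male mice in 4 groups of 3 was used, each mouse sequenced on its own. Per the labels and the methods, the authors quantified transcripts with Salmon 1.1.0 on GRCm38, summed them to genes with tximport and scaled them with DESeq2 (versions 1.26.0 of DESeq2 and 3.6.2 of R per the labels). The deposited values are therefore a signal, estimated gene counts divided by normalization factors, in which whole reads could not be recovered, and no count test was run on them. The library kit selected poly-A RNA and did not mark strand.

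For each of 17671 genes with a mean of at least 10 over the 6 vehicle mice, log2(value + 1) was compared with limma 3.58.1 (R 4.3.3, eBayes with a mean-variance trend), with Benjamini-Hochberg adjustment over all genes tested and a threshold of 0.05. Fold changes are on that scale and understate changes of low genes. The fits were tested on simulated data. KO-Mem against WT-Mem and the interaction were fitted in the same way on their own filters. Of the gene identifiers 19295 matched GENCODE M21, which gave names and positions. Named genes were all adjusted calls, the 12 protein-coding genes in each direction with the smallest p among those with a mean of at least 100 and no overlap, the 5 largest changes in each direction at an unadjusted p under 0.01 and a mean of at least 50, up to 4 genes with the smallest p in each of 37 lists (all genes of lists of up to 14, of which the text gives most of the others only through the counts and medians), and the genes near Shank2, given as counts with the clearest named; others named were chosen after their values were seen. A few genes that the rule names are not reported here. The members and lists were chosen with earlier results of these data known. The labels do not say whether the mice of a group came from separate litters, so p-values measure the spread between these mice. Alternatives were other pseudocounts, filters, scalings, priors, a fit on all 12 mice, a replicate block and leaving out each mouse.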

Additional observations from a re-analysis of the deposited data

How the results depend on the processing

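The loss of Shank2 passed under all 16 alternatives. Of the genes named with a fold change, Oxt, not nominal at -0.17, turned its direction without WT-Veh mouse 2, at 0.017. Its values with 1 mouse left out ran from -0.36 to 0.017. Other genes turned as well. Of the 8 oligodendrocyte precursor markers, 5 were negative with all mice and 6 without KO-Veh mouse 2. At least 1 of Vcan, Lhfpl3 and Pdgfra therefore turned there. Of the 24 endothelial markers, 23 were negative with all mice and 20 without WT-Veh mouse 3. The number of genes called, 5, was 2 with a filter at a mean of 50, 2 in the fit on all 12 mice, 3 with a pseudocount of 0.5, 3 with a pseudocount of 5 and 10 with a robust prior, and leaving out 1 mouse gave 2 to 41. Among the called genes, the 24 leading protein-coding genes and the 10 genes of the largest changes, 5 were called, against 2, 2, 3, 3 and 10 under these settings in the same order, 3 without a trend, and 2 to 10 with 1 mouse left out. The genes nominally higher numbered 658 to 1399 and those nominally lower 858 to 1508 with 1 mouse left out, and genes without overlap 4816 to 6220, where fewer mice make overlap rarer. With replicate numbers as a replicate block, 2 genes were called, both of them among those genes. Deviations of mice with the same number correlated at 0.016, -0.0055 and 0.024, and those with unlike numbers at -0.033 to 0.021. No pairing by number was seen, but this does not show whether such mice shared a litter or batch. Of the list medians, 10 of 592 values moved by more than the spread between mice, none of them for the chaperone, endothelial or myelin lists. The cause of these changes was not tested. With 3 mice per group, exact permutation of 1 gene cannot reach a two-sided p under 0.1, and the depth behind single values is not known.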
